A study of Rattus norvegicus with 9 samples.

Results

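The 10 genes described here carry signals that set vessel tone and neuronal activity: the endothelins Edn1 and Edn3, their receptors Ednra and Ednrb, the nitric oxide synthases Nos1 and Nos3, the natriuretic peptides Nppa and Nppc, and the receptors Npr2 and Npr3. Their probes were chosen as the non-control probes whose gene name on the array equals one of these symbols, out of 21142 genes with a symbol on the array. That gave 14 of 45598 probes, of which 12 were bright enough to test among 30215 tested probes. The untested ones are a pair of Npr3 probes.

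RNA was taken from the amygdala of female SHR rats, an inbred strain with high blood pressure, and hybridised to 1-colour expression arrays with 1 rat on each of 9 arrays. The ovaries of every rat, controls included, had been removed at 4 weeks of age, so neither group has ovarian hormones of its own. After 1 week of recovery, 5 rats (OV+E2) received a minipump that delivered 2 µg of estradiol a day in PEG for 1 month. The other group, 4 rats (OV), received a pump with PEG alone. Tissue was collected at 9 weeks of age from the amygdala of both sides, which pools all cell types of the region. No rats with ovaries and no normotensive strain are among these samples. Replicate numbers run from 1 to 5 in OV+E2 and are 1, 2, 3 and 5 in OV.

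Endothelins are short peptides cut from larger precursors that constrict or relax vessels through G protein-coupled receptors, and in brain the B receptor is known mainly from astrocytes. Nitric oxide is made from arginine by synthases and raises cyclic GMP through soluble guanylyl cyclase. Natriuretic peptides raise cyclic GMP too, through receptors that are themselves guanylyl cyclases, while the Npr3 product mainly clears the peptides. The comparison of OV+E2 with OV asks what estradiol does to these transcripts in an ovariectomised hypertensive rat.

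Sequences are shown for the probes whose readings carry the results below: the Edn3 probe, whose groups did not overlap, and the Ednrb and Nos1 probes on which a single array stood apart. They are printed 5′ to 3′ in lower case from the deposited probe annotation, with positions on rat build rn4.
Edn3 probe A_44_P328062, chr3:166510899-166511843, plus strand: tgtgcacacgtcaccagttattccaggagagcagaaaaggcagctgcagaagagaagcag
Ednrb probe A_64_P004974, chr15:87896574-87896633, minus strand: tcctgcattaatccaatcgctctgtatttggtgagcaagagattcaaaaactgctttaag
Nos1 probe A_44_P473047, chr12:39810923-39810982, minus strand: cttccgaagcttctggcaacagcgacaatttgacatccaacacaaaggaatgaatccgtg
The Edn3 probe has 60 bases, but its match covers 945 bases of the genome, so it joins separate stretches. Of the probes of these 10 genes it is the one annotated that way.

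The other Nos1 probe, A_43_P16104 (chr12:39869608-39869667, minus strand, rn4), is annotated to the transcript ENSRNOT00000066810. It was set against the RefSeq promoter of Nos1, the 300 bases from 250 before to 50 after the annotated start in build GRCr8. Within that window 59 of its 60 bases matched, from 183 to 124 bases upstream of the start. The difference is C46T, with the probe's base first, the position counted from 1 at the probe's 5′ end, and the promoter's base last. The window is shown with the matching stretch in capitals, because it places this probe outside the RefSeq transcript that starts there.
Nos1 promoter, chr12:44371788-44372087, minus strand, GRCr8: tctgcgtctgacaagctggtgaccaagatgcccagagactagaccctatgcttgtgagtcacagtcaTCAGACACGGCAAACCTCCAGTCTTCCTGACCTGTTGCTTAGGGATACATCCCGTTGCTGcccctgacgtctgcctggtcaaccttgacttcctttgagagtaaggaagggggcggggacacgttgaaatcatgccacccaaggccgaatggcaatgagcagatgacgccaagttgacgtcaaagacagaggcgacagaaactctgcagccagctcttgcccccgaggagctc

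RefSeq promoters in the table cover 8 of the 10 genes, all but Edn3 and Npr2. The palindromic estrogen response element GGTCANNNTGACC, searched on both strands, was in 0 of the 8, and it is in 0.0269% of all 33469 promoters of that length. Its half-site GGTCA was in 3 of the 8, against 40.5% of all promoters: Nos1 held 3 copies, Ednrb 1 and Nos3 1. The GC box GGGCGG was in 3 (Nos1, Nos3 and Nppc; 33.1% of all), the AP-1 site TGANTCA in 1 (Nos1; 7.33%) and TATAAA in 3 (Edn1, Nppa and Nppc; 14.2%). Such a match describes the letters of the window and does not show binding.

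The array of OV replicate 3 stood apart from the other 8. The 75th percentile of its signal was 129.7, against 556.8 to 737.6, and 24230 of its probes were well above background, against 29055 to 31398. Its mean correlation with the other arrays was 0.932, against 0.981 to 0.984. The authors' own value column for that rat correlated at 0.939 with its scanner file, and the SD of the log2 ratio between them was 1.00, against 0.00417 to 0.0307 for the other arrays. The arrays sat on 2 slides: slide 1 held OV+E2 replicates 1 and 2 with OV replicates 1, 2 and 3, and slide 2 held OV+E2 replicates 3, 4 and 5 with OV replicate 5. From which scan or array of that rat the authors' column came is not known here, so results from their values are open to that doubt wherever they are given.

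Below, relative signal is the processed signal of a probe divided by the 75th percentile of its array. It serves to compare rats on 1 probe, not probes or genes with each other. A sum over a marker list is weighted towards the brightest probes of that list. Differences are log2 values of OV+E2 minus OV from limma over 5 and 4 rats, with the standard error (SE) and p adjusted by Benjamini-Hochberg over all tested probes. A probe was called at an adjusted p under 0.05. Of the 12 tested probes 0 were called, where the share called among all 30215 probes was 0%. At an unadjusted p under 0.05 there was 1 of 12 (8.33%), the Edn3 probe, against 10.4% of all probes, of which 7.17% were lower and 3.21% higher in OV+E2. By direction 8 of the 12 were lower and 4 higher in OV+E2, where 49.8% of all probes were lower. The median difference of the 12 was −0.05, and 0.00 over all tested probes. For 2 of 12 probes (16.7%), those of Edn3 and Nos1 A_44_P473047, every OV+E2 rat was below every OV rat, against 4% of all probes. In 0 of 12 was every OV+E2 rat above every OV rat, against 2.89% of all probes, and in either direction the share of all probes is 6.89%. The shares of the 12 rest on 1 and 2 probes.

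**Figure D1:**
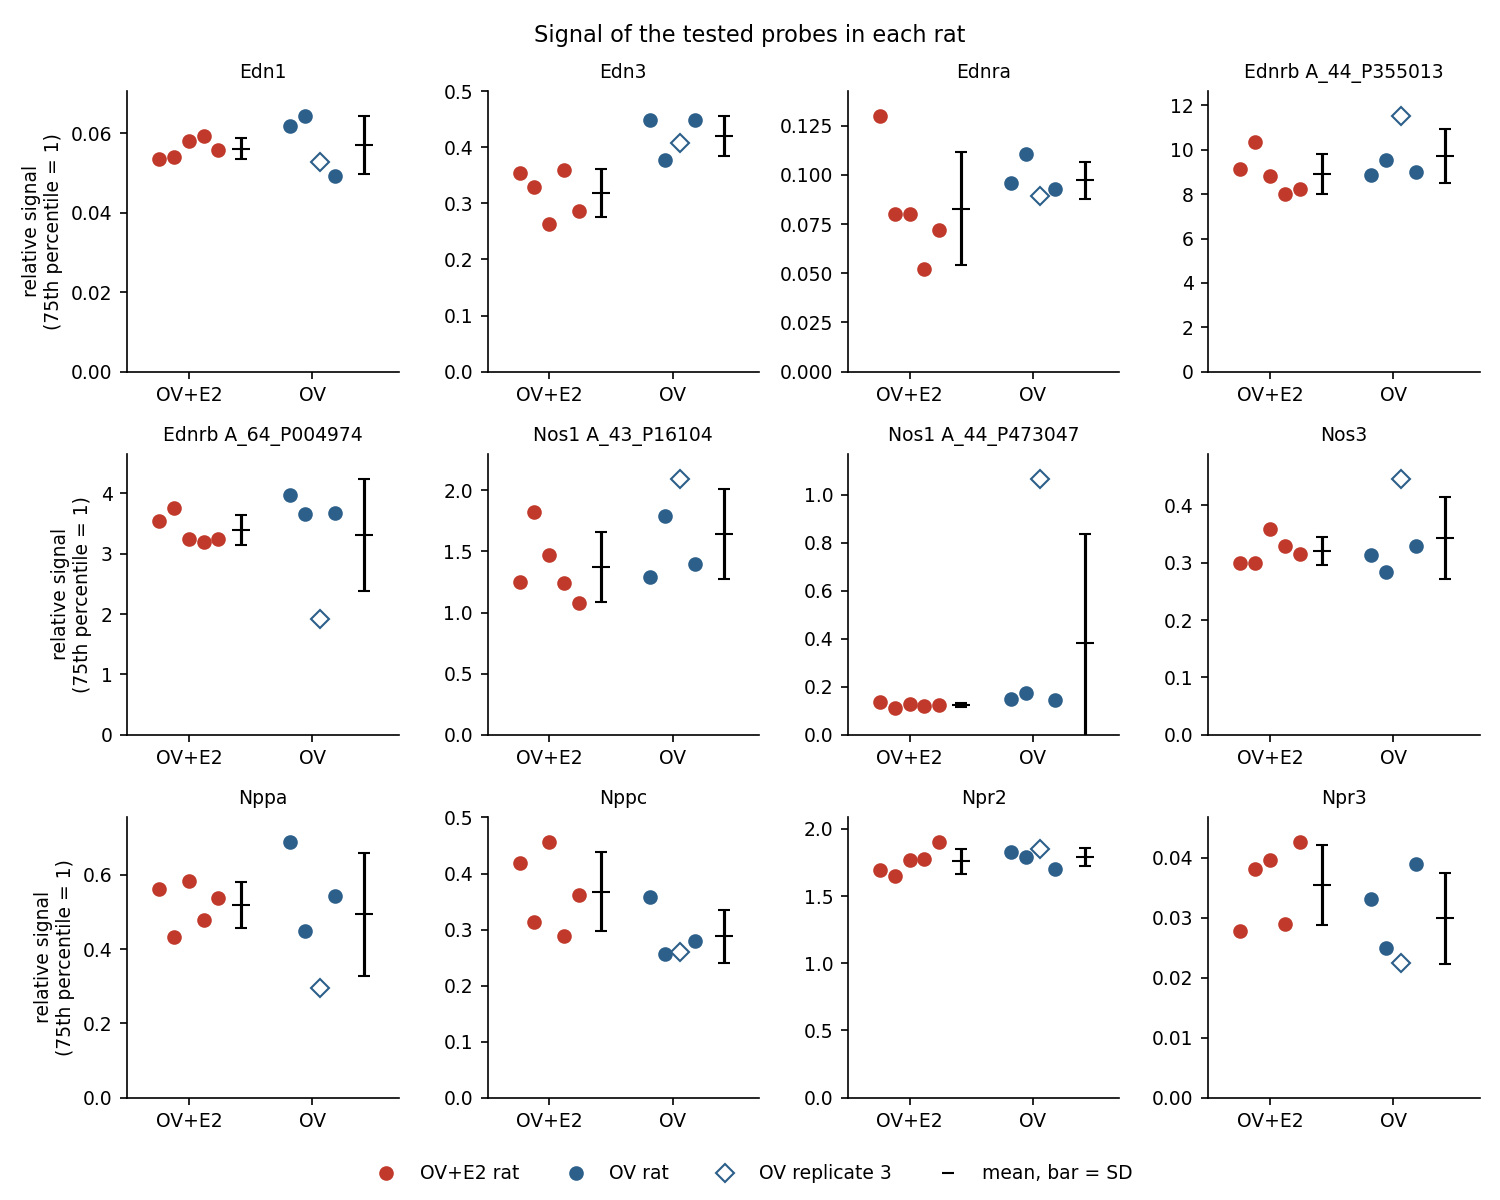
Relative signal (75th percentile of the array = 1, linear axis from 0) of the 12 tested probes, OV+E2 left and OV right; each point is 1 rat, the open diamond is OV replicate 3, and bars are the mean with SD over 5 OV+E2 and 4 OV rats. The groups are separate for Edn3 and for Nos1 probe A_44_P473047, where OV replicate 3 lies at 1.06 and the SD bar of OV runs below 0.

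Edn3, the ligand that acts chiefly through the B receptor, had the smallest p of these genes and stood in OV+E2 at 75.4% of its OV level. Its relative signal was 0.354, 0.329, 0.263, 0.359 and 0.287 in OV+E2 rats, against 0.449, 0.377, 0.407 and 0.449 in OV rats. The highest OV+E2 rat lay below the lowest OV rat, and OV replicate 3 sat inside its group. The means were 0.318 ± 0.0423 in OV+E2 and 0.420 ± 0.0352 in OV (SD, n = 5 and 4). The difference was −0.41 (SE 0.12), a fold of 0.754 with a 95% confidence interval of 0.622 to 0.913. It ranked 846 of 30215 probes by p in limma and did not pass adjustment (adjusted p = 0.313).

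The lower Edn3 signal in OV+E2 was present on both slides, at −0.26 within slide 1 and −0.58 within slide 2, where OV has a single rat. With slide as a block it was −0.39 (adjusted p = 0.565). Without OV replicate 3 it was −0.42 (adjusted p = 0.200), and in the authors' processed values −0.41 (adjusted p = 0.0960). Over 20 alternatives the difference ran from −0.46 to −0.30, and none of them passed the threshold, with a lowest adjusted p of 0.0850. In tissue that pools cell types, fewer cells of a type and less RNA per cell cannot be told apart.

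Marker lists that differed beside Edn3 were those of the meninges and of blood. The summed relative signal of 10 meninges and fibroblast markers was 53.6 to 57.5 in OV+E2 rats, against 57.8 and above in OV rats, with 5 of 10 lower at an unadjusted p under 0.05. For 9 tested red blood cell and leukocyte markers the sum was 104.5 to 146 in OV+E2 rats, against 156 to 168 in OV rats, with 5 of 9 lower at that p. By mean 7 of the 9 were lower and 2 higher. In both lists the sum of every OV+E2 rat was below that of every OV rat, in the meninges list by a narrow gap (57.5 against 57.8). The brightest blood probe was that of the hemoglobin gene Hba-a1, with a mean log2 signal of 6.89 in OV+E2 rats. The next, Hba-a2, was at 2.38, so the blood sum mostly reflects Hba-a1. The difference was −0.33 for Hba-a1, −0.04 for Hba-a2 and +0.11 for the hemoglobin gene Hbb. The hypothalamic peptide markers were listed because they may bear on the edge of the dissection, which was not tested. Their sum was 31.2 to 67.9 in OV+E2 rats and 51.3 to 106 in OV rats, with 2 of 6 lower and 0 higher at that p. Those 2 were the vasopressin gene Avp, at −1.08 (−1.03 within slide 1 and −1.19 within slide 2), and the oxytocin gene Oxt, at −0.82 (−0.74 and −0.88). The rest of that list was not at that p, with Hcrt at −0.21, Pmch at −0.21, Ghrh at −0.17 and Trh at +0.20. The part of the meninges, blood and hypothalamic markers in the Edn3 difference was not tested.

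The genes whose profile was most like that of Edn3 were Anxa5, Slco2b1 and Dnajc18. Over the 8 arrays other than OV replicate 3 their Pearson correlations with Edn3 were 0.986, 0.973 and 0.953, the highest of 14992 genes with a symbol. Over all 9 arrays the values were −0.0786, 0.110 and 0.813, so for Anxa5 and Slco2b1 the likeness depends on leaving that array out. In the fit over all 9 arrays the differences were +0.27 for Anxa5, +0.06 for Slco2b1, −0.43 for Dnajc18 and −0.41 for Edn3. These differences include OV replicate 3, which the correlations that chose the genes left out. Their signs therefore cannot be set against that likeness. The correlations and differences are descriptions over few arrays that share slides and scaling.

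Edn1, the vasoconstrictor ligand, was dim on these arrays, and its groups overlapped. The relative signal was 0.0534, 0.0540, 0.0581, 0.0595 and 0.0557 in OV+E2 rats, against 0.0619, 0.0644, 0.0528 and 0.0492 in OV rats. The OV rats lay on both sides of the OV+E2 rats. Its probe A_44_P334736 (chr17:28304023-28304082, minus strand, rn4) exceeded background clearly on 5 of 5 OV+E2 and 3 of 4 OV arrays. The difference was −0.02 (SE 0.11, adjusted p = 0.943 in limma), with a 95% interval of 0.839 to 1.17 in fold. It was −0.15 within slide 1 and +0.23 within slide 2, and ran from −0.37 after normexp to +0.16 in the authors' values.

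Ednra, the A receptor that mediates constriction of smooth muscle, did not separate the groups. The relative signal was 0.130, 0.0801, 0.0800, 0.0524 and 0.0718 in OV+E2 rats, against 0.0959, 0.111, 0.0895 and 0.0928 in OV rats. OV+E2 replicate 1 was the highest of all 9 and the other 4 OV+E2 rats were below every OV rat. The difference was −0.29 (SE 0.23, adjusted p = 0.547 in limma), with +0.05 within slide 1, which holds that rat, and −0.47 within slide 2. Without OV+E2 replicate 1 it was −0.47 (adjusted p = 0.483), without OV+E2 replicate 4 −0.14 (adjusted p = 0.738), and with slide as a block −0.15. The probe, A_64_P109657 (chr19:32108094-32108153, plus strand, rn4), met the same detection criterion on 5 of 5 OV+E2 and 3 of 4 OV arrays.

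Ednrb, the B receptor, was read by a pair of probes that disagreed on OV replicate 3, and on neither did the groups separate. Probe A_44_P355013 (chr15:87890957-87891015, minus strand, rn4) is spotted 10 times on each array, and its spots had a coefficient of variation of 3.91% to 6.65%. Its relative signal was 9.12, 10.3, 8.82, 8.03 and 8.26 in OV+E2 rats, against 8.88, 9.52, 11.5 and 8.98 in OV rats. The groups overlapped, and OV replicate 3 was the highest rat. The difference was −0.12 (SE 0.12, adjusted p = 0.593 in limma), or a fold of 0.918 (95% interval 0.764 to 1.10), and −0.04 without OV replicate 3.

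The second Ednrb probe, A_64_P004974, whose sequence is printed above, gave 3.55, 3.76, 3.24, 3.20 and 3.24 in OV+E2 rats, against 3.97, 3.66, 1.93 and 3.67 in OV rats. Here OV replicate 3 was the lowest rat by a wide gap, and OV+E2 replicates 3, 4 and 5 were next. The difference was +0.09 (SE 0.21, adjusted p = 0.822 in limma) with that array and −0.15 (SE 0.08, adjusted p = 0.425) without it, so its direction rests on 1 rat. It was +0.27 within slide 1 and −0.18 within slide 2. In the authors' own values the same rat stood at 2792 on this probe, above the other 8 rats, which lay between 2107 and 2615. The authors' values gave −0.19 (adjusted p = 0.203). The correlation between the probes was 0.666 over 8 arrays and −0.549 over 9, both as descriptions.

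**Figure D2:**
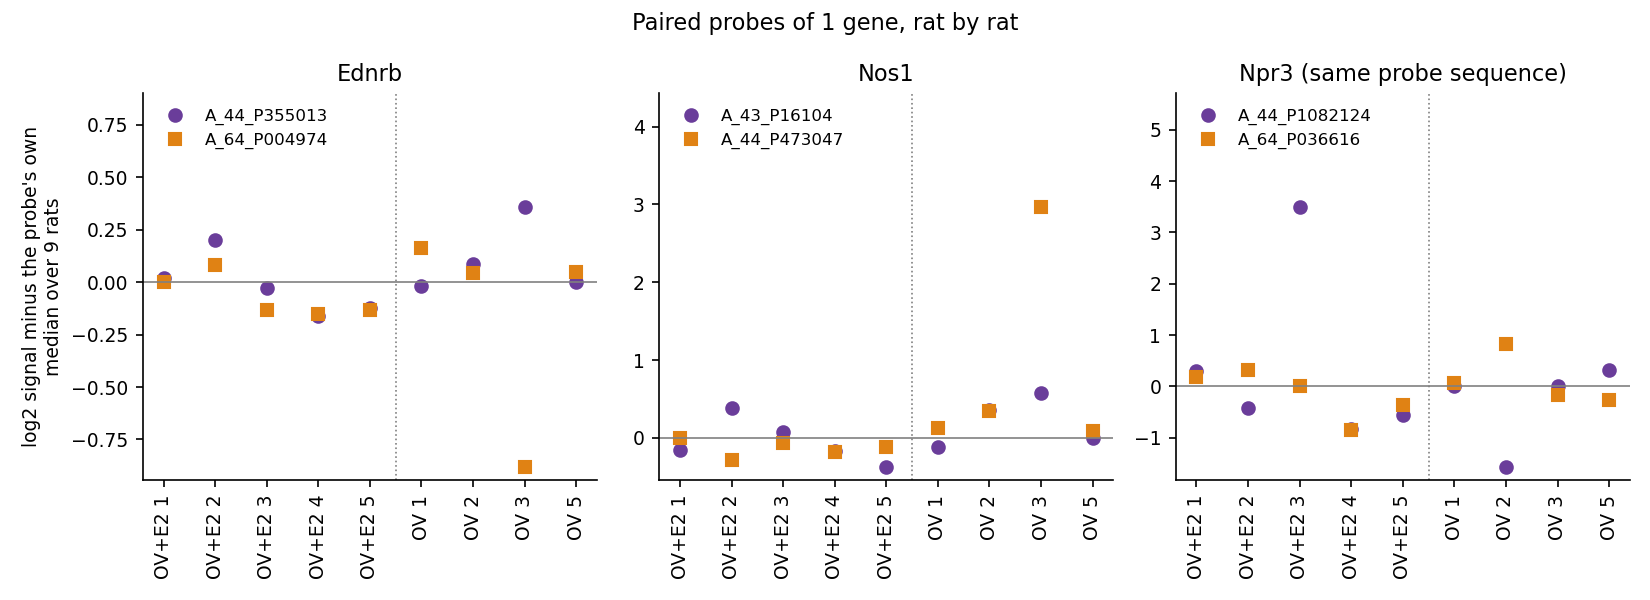
Log2 signal of paired probes minus each probe's own median over the 9 rats (y axis), by rat (x axis, OV+E2 left of the dotted line and OV right of it), for Ednrb, Nos1 and the Npr3 pair that carries 1 sequence. OV replicate 3 is highest on one Ednrb probe and lowest on the other, it stands far above the rest on Nos1 probe A_44_P473047, and OV+E2 replicate 3 is high on 1 of the Npr3 probes alone.

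Nos1, the neuronal synthase, was lower in OV+E2 on both of its probes, with neither passing adjustment. On probe A_44_P473047, annotated to the RefSeq transcript NM_052799, the relative signal was 0.136, 0.111, 0.130, 0.120 and 0.125 in OV+E2 rats, against 0.148, 0.173, 1.06 and 0.144 in OV rats. All 5 OV+E2 rats were below all 4 OV rats, and OV replicate 3 was far above every other rat. The difference over 9 arrays was −1.02 (SE 0.55, adjusted p = 0.512 in limma), and most of it came with that array. Without OV replicate 3 it was −0.32 (SE 0.09, adjusted p = 0.191), and the groups still did not overlap. Without that array 14.1% of all probes were at an unadjusted p under 0.05, and in 10.4% the groups did not overlap in either direction.

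For this Nos1 probe the authors' value of OV replicate 3 was 114.2, where the OV+E2 rats lay between 73.0 and 89.4 and the highest of the other OV rats was at 113.4. Their values gave −0.36 (adjusted p = 0.0748). The largest size among the alternatives was −1.28, without OV replicate 5. Within slide 1 the difference was −1.29 and within slide 2 it was −0.21. All 20 alternatives had it lower in OV+E2 and none passed, with a lowest adjusted p of 0.0555 under array weights (−0.44).

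Probe A_43_P16104, which matches the promoter window above, read 1.25, 1.82, 1.47, 1.24 and 1.08 in OV+E2 rats, against 1.29, 1.79, 2.09 and 1.40 in OV rats. The groups overlapped, with OV+E2 replicate 2 among the highest and OV replicate 3 highest. The difference was −0.26 (SE 0.19, adjusted p = 0.537 in limma), −0.13 without OV replicate 3, and −0.16 within each slide. Averaged over both probes, with OV replicate 3 included, Nos1 was at −0.64 (SE 0.33, adjusted p = 0.511). Without that array probe A_43_P16104 was at −0.13 and probe A_44_P473047 at −0.32, both smaller in size than this average.

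Nos3, the endothelial synthase, gave overlapping groups. Its relative signal was 0.299, 0.300, 0.359, 0.329 and 0.315 in OV+E2 rats, against 0.314, 0.284, 0.446 and 0.329 in OV rats. OV replicate 3 was the highest rat, and the other OV rats lay across the OV+E2 range. The difference was −0.08 (SE 0.14, adjusted p = 0.759 in limma; fold interval 0.761 to 1.17), and +0.05 without OV replicate 3. Within slide 1 it was −0.19 and within slide 2 +0.02. The probe is A_44_P198620 (chr4:6159286-6159345, minus strand, rn4). The summed relative signal of 13 endothelial markers was 24.2 to 27.5 in OV+E2 rats, against 27.1 to 40.7 in OV rats, or 27.1 to 28.9 without OV replicate 3. Of these, 3 were lower and 0 higher at an unadjusted p under 0.05, against 7.17% and 3.21% of all tested probes.

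Nppa, the atrial natriuretic peptide gene, showed a wider range in OV than in OV+E2. The relative signal was 0.562, 0.434, 0.584, 0.479 and 0.537 in OV+E2 rats, against 0.689, 0.449, 0.295 and 0.544 in OV rats. The OV rats held both the highest and the lowest value, the lowest being OV replicate 3. The difference was +0.13 (SE 0.23, adjusted p = 0.766 in limma) and −0.10 without that array. It was +0.13 within slide 1, −0.03 within slide 2 and +0.31 without OV replicate 1. The probe is A_44_P317600 (chr5:165074636-165074695, plus strand, rn4).

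Nppc, the gene of C-type natriuretic peptide, which acts through Npr2, was the highest of these genes in OV+E2 relative to OV, without passing the test. Its relative signal was 0.419, 0.313, 0.456, 0.289 and 0.362 in OV+E2 rats, against 0.358, 0.256, 0.260 and 0.280 in OV rats. Every OV+E2 rat was above the 3 lowest OV rats, and OV replicate 1 lay among the OV+E2 rats. The means were 0.368 ± 0.0699 in OV+E2 and 0.288 ± 0.0473 in OV (SD, n = 5 and 4). The difference was +0.34 (SE 0.17, adjusted p = 0.501 in limma), a fold of 1.27 with a 95% interval of 0.979 to 1.65. It was +0.33 within slide 1, +0.38 within slide 2 and +0.30 without OV replicate 3. Over 20 alternatives it stayed positive, between +0.12 after normexp background correction and +0.45 without OV replicate 1. The probe is A_44_P240696 (chr9:85434422-85434481, minus strand, rn4).

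Npr2, the guanylyl cyclase receptor of C-type natriuretic peptide, had the smallest SE of these genes. It gave 1.69, 1.65, 1.77, 1.77 and 1.90 in OV+E2 rats, against 1.83, 1.79, 1.85 and 1.70 in OV rats. The OV range lay inside that of OV+E2. The difference was −0.03 (SE 0.08, adjusted p = 0.863 in limma), and the 95% interval of 0.862 to 1.12 in fold leaves room for a change of that size. It was −0.12 within slide 1 and +0.10 within slide 2. The probe is A_42_P726573 (chr5:60127743-60127802, plus strand, rn4).

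Npr3, the clearance receptor, was near the limit of detection. The tested probe, A_44_P715788 (chr2:61276153-61276212, minus strand, rn4), was detected well above background on 4 of 5 OV+E2 and 2 of 4 OV arrays. It read 0.0278, 0.0381, 0.0397, 0.0289 and 0.0426 in OV+E2 rats, against 0.0331, 0.0250, 0.0224 and 0.0390 in OV rats. The groups overlapped, with the highest value in OV+E2 and the lowest, OV replicate 3, in OV. The difference was +0.26 (SE 0.20, adjusted p = 0.546 in limma), and +0.13 without OV replicate 3. It ran from −0.31 after normexp to +0.74 after quantile normalization, and was +0.30 within slide 1 and −0.09 within slide 2.

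Both untested Npr3 probes, A_44_P1082124 and A_64_P036616, carry the same 60 bases (chr2:61278264-61278323, minus strand, rn4), so any gap between them is spread between spots of 1 sequence. The first was well above background on 1 of 5 OV+E2 and 0 of 4 OV arrays, and the second on 0 of 5 and 1 of 4. In OV+E2 replicate 3 they read 0.242 and 0.0229, from mean spot signals of 203.7 and 62.8. With 1 detected spot each, neither probe gives a direction between the groups.

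**Figure D3:**
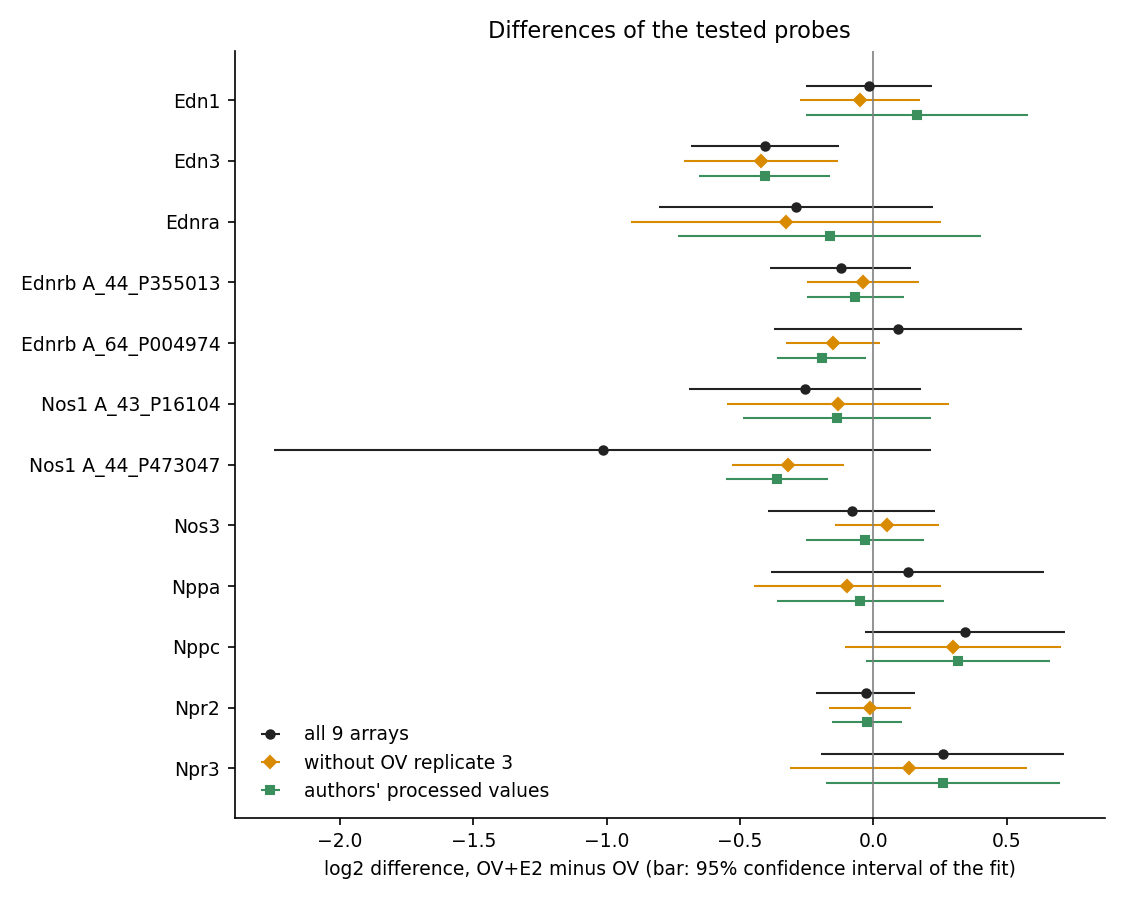
Log2 difference, OV+E2 minus OV, of the 12 tested probes (x axis, with 95% confidence intervals of the limma fit), from all 9 arrays, without OV replicate 3, and from the authors' processed values. The intervals of Edn3 lie below 0 in all 3 fits, those of Nos1 probe A_44_P473047 do so in the authors' values and when OV replicate 3 is left out, that of Ednrb probe A_64_P004974 does so in the authors' values alone, and no probe passed the adjusted threshold.

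Other genes of the endothelin pathway were measured by 11 tested genes, each on its brightest probe. At an unadjusted p under 0.05, 1 was higher and 2 were lower, 0 were called, and the median was −0.12, against +0.02 over 15835 genes. Ecel1, a membrane protease of the endothelin-converting enzyme family, was at −0.38 (SE 0.11, adjusted p = 0.319) and −0.30 without OV replicate 3. Its other probe was at −0.15, and at −0.30 without that array. The brightest probe gave −0.44 within slide 1 and −0.12 within slide 2. The third ligand gene Edn2, dim here, was at −0.67 (SE 0.28, adjusted p = 0.455) and at −0.60 without OV replicate 3, with −0.18 within slide 1 and −1.51 within slide 2. Gna11, which encodes a G protein alpha subunit that couples receptors to phospholipase C, was at +0.40 (SE 0.15, adjusted p = 0.427), and +0.25 without that array. The zinc finger factor gene Vezf1 was at +0.21 on its brightest probe and at −0.22 and −0.19 on the others. Without OV replicate 3 these values were, in the same order, +0.15, +0.22 and −0.18.

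In the nitric oxide pathway 29 other genes were tested, with 0 higher and 2 lower at an unadjusted p under 0.05, 0 called and a median of +0.04. Prkg1, the cyclic GMP-dependent protein kinase, read 0.0273 to 0.0417 in OV+E2 rats, against 0.0464 to 0.105 in OV rats. Its groups did not overlap, and the probe was dim, being well above background on 7 of 9 arrays. The difference was −0.97 (SE 0.25, adjusted p = 0.265 in limma) and −0.96 without OV replicate 3. Gch1, the first enzyme in the synthesis of the synthase cofactor tetrahydrobiopterin, was at −0.61 (SE 0.24, adjusted p = 0.431) and −0.37 without OV replicate 3. The second kinase gene Prkg2 was at +0.17 on one probe and −0.19 on the other. Without OV replicate 3 these values were +0.13 and −0.026. Pde1a, a calcium-regulated phosphodiesterase of cyclic nucleotides, was at −0.50 and, without OV replicate 3, at −0.20, with −0.68 within slide 1 and −0.04 within slide 2. The inducible synthase Nos2 reached that level on 0 of 9 arrays with either of its probes.

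The natriuretic peptide list had 7 other tested genes, 0 of them at an unadjusted p under 0.05 and 0 called, with a median of −0.06. Npr1, the receptor of atrial natriuretic peptide, was at −0.32 (SE 0.15, adjusted p = 0.499) and at −0.24 on its second probe, and both moved towards 0 or past it without OV replicate 3 (−0.17 and +0.05). Corin, the protease that activates the atrial peptide precursor, was at +0.59 (SE 0.30, adjusted p = 0.504) and +0.79 without that array. It came from a dim probe that gave +0.88 within slide 1, −0.04 within slide 2 and +0.13 in the authors' values. That probe was well above background on 5 of 5 OV+E2 and 1 of 4 OV arrays, so it passed the filter mainly through OV+E2. The second Corin probe was so on 0 of 9 arrays. The uroguanylin gene Guca2b was at +0.17. Ide, the insulin-degrading enzyme, was at −0.11 on one probe and +0.43 on the other. Without OV replicate 3 these values were −0.095 and +0.040. Nppb, Ostn, Gucy2c and Gucy2f were well above background on 0 of 9 arrays.

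**Figure D4:**
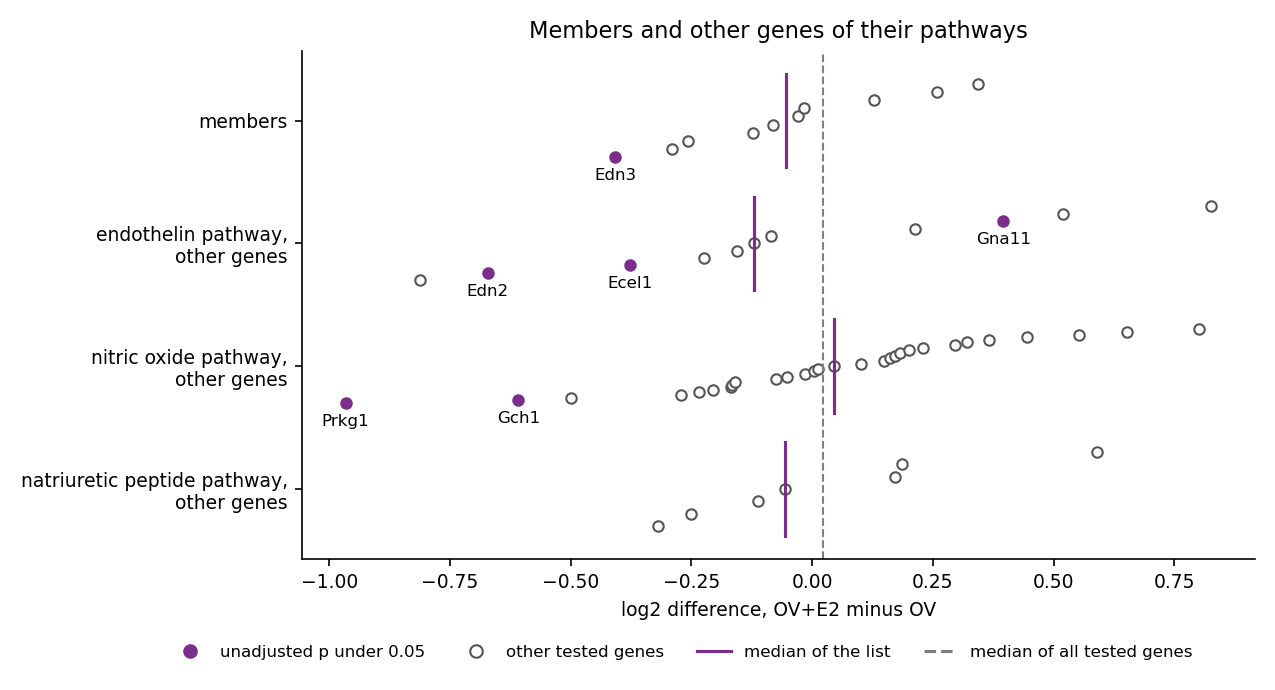
Log2 difference, OV+E2 minus OV, of the 10 genes (members) and of the other tested genes of the 3 pathways (x axis), each on its brightest probe; filled points have an unadjusted p under 0.05 and are named, vertical bars are list medians and the dashed line is the median of all tested genes. The medians of the lists lie between −0.12 and +0.04, and points fall on both sides of 0 in each list.

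Markers of other cells that can express these genes were set beside them. The summed relative signal of 9 pericyte and smooth muscle markers was 4.66 to 5.96 in OV+E2 rats, against 4.97 to 6.70 in OV rats. Without OV replicate 3 the OV sums were 4.97 to 5.935. Of these markers 0 were higher and 1 was lower at an unadjusted p under 0.05. The 10 astrocyte markers summed to 456 to 556 in OV+E2 rats, against 462 to 594 in OV rats, or 462 to 561 without that array. In either direction 0 were at that p. For 10 interneuron markers the sums were 265 to 295 in OV+E2 rats and 236 to 298 in OV rats, or 236 to 293 without that array. At that p 1 was higher and 0 were lower. Choroid plexus markers varied most, from 254 to 476 in OV+E2 rats and from 11.6 to 749 in OV rats. Without OV replicate 3 the OV sums of this list ran from 11.6 to 344. The choroid sum mostly reflects Ttr, with a mean log2 signal of 8.42 in OV+E2 rats, against 0.48 for the next, Folr1. Of these markers 6 of 6 had a higher mean in OV+E2, with 0 at that p. The amygdala and pan-neuronal markers were present, 9 of 10 on the array being tested (all but Rspo2, well above background on 3 of 5 OV+E2 and 0 of 4 OV arrays with its best probe), with sums of 148 to 167 in OV+E2 rats and 119 to 153 in OV rats. All 9 tested had a higher mean in OV+E2, and 1 did so at that p, the vesicular glutamate transporter gene Slc17a7 (+0.30). Without OV replicate 3, which had the lowest sum, the OV sums were 128 to 153. In the fit without that array Snap25 turned to −0.01 and Syt1 went from +0.65 to +0.21, while the other tested markers stayed positive. The part of these cells in the differences above was not tested.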

How the data were processed

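Scanner files of Agilent 1-colour Cy3 arrays were used. As deposited by the authors, their processed signal is a background-subtracted intensity. Feature Extraction is given in version 9.1 in the submitters' processing notes and in version 10.7.3.1 in the file headers. Control and outlier spots were left out and spots of a probe averaged. Log2 signals were scaled by subtracting the array's 75th percentile. A probe entered the test when at least 4 of 9 arrays had it well above background. The test was limma 3.58.1 (with R 4.3.3 and the reader package data.table, version 1.17.8), with lmFit and eBayes on group alone and Benjamini-Hochberg adjustment over 30215 probes. Each array is 1 rat, and the number of arrays limits the precision.

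Alternatives were normexp (offset 50), quantile and median scaling, the authors' processed values, other probe filters, slide and replicate blocks, array weights and leaving out each array. The authors' scaling of their own values is not stated in the labels or headers. Genes named were all 10 members with every probe, the 4 tested genes of smallest p in each pathway list, and the 3 genes most correlated with the member of smallest p. Members and lists were chosen with earlier results of these data known. Other genes were named through RefSeq accessions, symbols or synonyms.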

Additional observations from a re-analysis of the deposited data

Results flagged for a closer look

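In 28 groups of 4 or 5 rats the highest or lowest rat was compared with its nearest neighbour by Dixon's ratio of that gap to the range of the group. In 3 groups the ratio exceeded its 95% critical value, which chance passes in about 1 of 20 groups. On Ednrb probe A_64_P004974 OV replicate 3 read 1.93, with the nearest OV rat at 3.66 (ratio 0.889). On Nos1 probe A_44_P473047 the same rat read 1.06, with the nearest at 0.173 (ratio 0.910). On Npr3 probe A_44_P1082124 OV+E2 replicate 3 read 0.242, with the nearest OV+E2 rat at 0.0263 (ratio 0.738), while the other probe of the same sequence read 0.0229 in that rat.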

How the results depend on the processing

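No member probe was called under any alternative. Over all probes the calls numbered 70 in the authors' processed values, 9 with no filter on dim probes and 3506 with array weights, 0 to 1 with each array left out, and 1 without OV replicate 3 both in the authors' values and with slide as a block. Member probes at an unadjusted p under 0.05 numbered 2 after quantile normalization, where 10.8% of all probes had such a p. They numbered 0 after median scaling (9.71% of all probes), 3 in the authors' values (18.8%) and 5 with array weights (31.5%). With each array left out they numbered 1 to 2 (6.69% to 17.6% of all probes). Without OV replicate 3 they numbered 2 in the authors' values (14.1%) and 2 with slide as a block (15.6%). With array weights 3 endothelin, 1 nitric oxide and 1 natriuretic peptide pathway genes were called, where 3506 of all 30215 tested probes were. Median scaling shifted the median of all probes to +0.11, normexp to −0.11 and no filter to −0.13.

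Some differences near 0 turned round. Edn1 was at +0.13 after quantile normalization, +0.089 after median scaling, +0.16 in the authors' values, −0.37 after normexp and −0.085 to +0.044 with each array left out. Ednrb probe A_44_P355013 was at +0.00086 with slide as a block without OV replicate 3. Ednrb probe A_64_P004974 was at −0.19 in the authors' values and −0.15 with array weights, −0.15 in the authors' values without OV replicate 3, −0.11 with slide as a block without it, and −0.15 to +0.20 with each array left out. Nos3 was at +0.025 after median scaling, +0.13 with array weights, +0.052 in the authors' values without OV replicate 3, +0.012 with slide as a block without it, and −0.16 to +0.052 with each array left out. Nppa was at −0.023 after normexp, −0.049 in the authors' values, −0.10 in these without OV replicate 3, −0.11 with slide as a block without it, and −0.10 to +0.31 with each array left out. Npr2 was at +0.014 after normexp, +0.077 after median scaling and +0.0091 with array weights, and Npr3 at −0.31 after normexp. The cause was not tested, beyond the arrays left out.

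The labels do not say whether replicate numbers pair rats. Same-numbered deviations correlated at 0.170, −0.0761, −0.011 and 0.105, and differently numbered ones at −0.29 to 0.122. So few values cannot decide whether the numbers pair rats. With the replicate block 0 probes were called. In that fit 2 member probes, those of Edn3 (−0.45) and Nppc (+0.43), had an unadjusted p under 0.05, against 6.51% of all probes. Dim probes (Edn1, Ednra, Npr3) were not well above background on every array, which limits their values.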
